A study of Homo sapiens with 5 samples.

Results

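CREB and its coactivators form a group of transcription regulators that answer to cyclic AMP, and the cAMP phosphodiesterases set how long that signal lasts. The genes examined were *CREB1*, *CREM* and *ATF1* for the CREB family, *CREBBP* and *EP300* for the acetyltransferases CBP and p300, *CRTC1*, *CRTC2* and *CRTC3* for the CREB-regulated coactivators, and the phosphodiesterase genes *PDE4B* and *PDE4D*. They were chosen by name, with earlier results of these data known, and each was read from the probe whose annotation named that gene alone. Of the 10 genes, 9 had such a probe, 1 each, among 18417 genes tested, and *ATF1* was not analysed here. RNA came from RS4;11, a human acute leukemia line with a rearranged MLL gene, measured on whole-transcript arrays. Cells on 3 arrays had received 10 uM SB216763, which inhibits the kinase GSK-3, for 20 h, and cells on 2 control arrays had received its solvent DMSO for 20 h. All 5 arrays came from this 1 line. Separate cultures are not stated, and the p-values therefore cover the spread among these arrays alone, which may be technical. Values are the authors' log2 expression values, and differences are SB216763 minus control on that scale (n = 3 and n = 2).

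Adenylyl cyclases make cAMP, which frees the catalytic subunits of protein kinase A from its regulatory subunits. Protein kinase A phosphorylates CREB, and the phosphorylated form recruits CBP and p300, which acetylate histones. The CRTC proteins bind CREB as well, after calcineurin has removed phosphates that salt-inducible kinases place on them to hold them in the cytoplasm. Phosphodiesterases such as those encoded by *PDE4B* and *PDE4D* degrade cAMP. GSK-3 can phosphorylate CREB after protein kinase A has done so, and in MLL-rearranged leukemia CREB, CBP and the CRTC proteins have been described as partners of the homeodomain factor MEIS1 in a manner that depends on GSK-3. The comparison here asks whether the transcripts of these factors, of the cAMP pathway around them and of genes known to be driven by CREB differ after GSK-3 inhibition. It measures transcripts, not phosphorylation or binding.

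The array medians lay between 6.77 and 6.84 log2 units. The background of each array, taken as the 95th percentile of 341 olfactory receptor genes, lay between 5.98 and 6.19. RS4;11 is known as a line of B cell precursor origin, though the labels call it only a leukemia line. Of 9 measured B cell precursor markers, *CD79B*, *PAX5* and *IGLL1* were above background on all 5 arrays, and *VPREB1*, *CD22*, *CD24*, *DNTT* and *RAG1* on none. Of 6 myeloid markers 5 were above background on all arrays, with *FCGR3A* above it on none, and their log2 levels summed to 45.0 to 45.6 on the SB216763 arrays, against 43.9 to 44.2 on the control arrays. The 6 T and NK cell markers summed to 41.2 to 41.6 with SB216763, against 40.7 to 40.8 in controls. Of them, *CD7* and *NKG7* were above background on all 5 arrays, and *CD3D*, *CD3E*, *CD3G* and *GNLY* on none. The B cell precursor markers summed to 53.3 to 54.3 with SB216763, against 53.3 to 53.4 in controls, and the 2 measured erythroid markers, *KLF1* and *ALAS2*, to 13.6 to 14.5, against 14.5 to 14.6. *LYZ* among the myeloid markers and *NKG7* among the T and NK cell markers were called higher with SB216763, and no other marker was called. The part of these shifts in the results below was not tested. As the RNA is an average over many cells, fewer expressing cells and less RNA per cell cannot be told apart.

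Of the 9 measured genes, *CREBBP* was the one that limma called, higher with SB216763 by 1.37-fold. *EP300*, *CREB1*, *CRTC1* and *CRTC2* had positive differences of 0.13 to 0.31 that did not pass, and *CRTC3* differed by -0.02. These 6 genes were above background on every array, whereas *CREM*, *PDE4B* and *PDE4D* were above it on none. A gene was called where limma's p, adjusted by Benjamini-Hochberg across the 18417 genes, was under 0.05. By this rule 13.1% of genes were called in either direction and 7.21% were called higher with SB216763. The 1 of 9 called here, or 11.1%, is near the share over all genes. The median difference of the 9 genes was 0.23, and that of all genes 0.00. The medians were 0.24 over the 6 genes above background and 0.01 over the 12071 genes above background on all arrays.

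**Figure D1:**
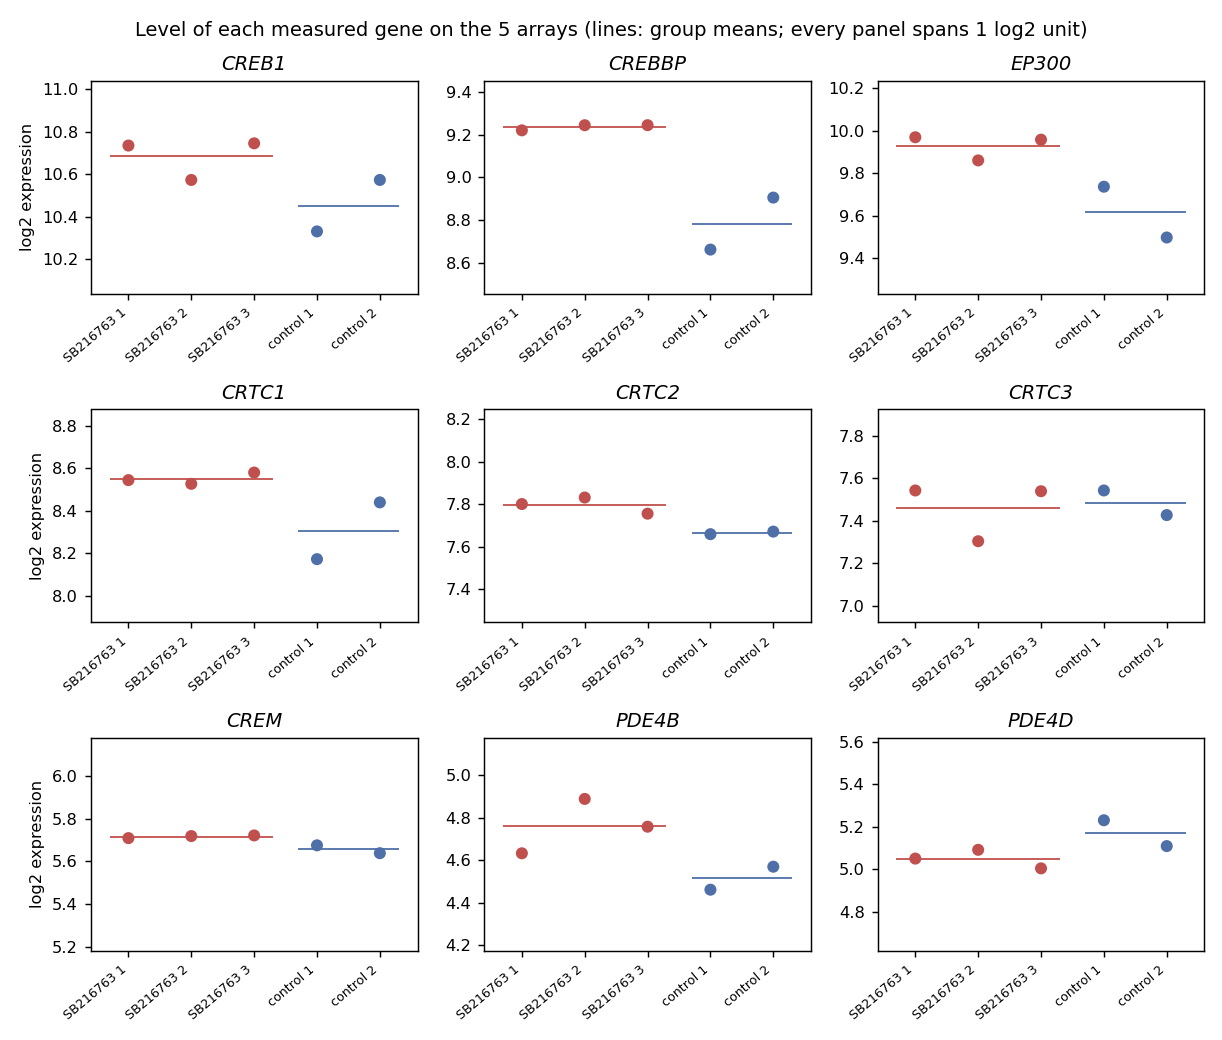
Log2 expression (y axis) of the 9 measured genes on each array (x axis), SB216763 arrays in red on the left and control arrays in blue on the right, with lines at the group means. Every panel spans 1 log2 unit on its own axis, so heights are not comparable between panels. The *CREBBP* points lie at 9.22 to 9.25 with SB216763 and at 8.66 and 8.91 in controls, while the *CREB1* and *CRTC3* points overlap between groups.

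*CREB1* encodes CREB, the factor that binds the cAMP response element. Its log2 level was 10.73, 10.57 and 10.75 on the SB216763 arrays, against 10.33 and 10.57 on the control arrays. The lowest SB216763 array and the higher control array held the same value, so the groups met. The difference was 0.23 (SE 0.10, 95% interval -0.01 to 0.47, adjusted p = 0.201 by limma), a ratio of 1.17. It was 0.11 without control replicate 1 and 0.35 without control replicate 2. In a search of 12070 other genes above background, the genes whose centred profiles over the 5 arrays lay nearest to that of *CREB1* were *UHMK1*, *HARS2* and *ACYP2*, at root mean square distances of 0.0064, 0.011 and 0.016 log2 units. With 5 arrays and so many genes searched, close profiles of this kind are a description.

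*CREM* encodes a close relative of CREB whose short internal product ICER represses cAMP-driven genes. It lay at 5.71, 5.72 and 5.72 with SB216763, against 5.68 and 5.64 in controls. All of these were below the array background, so the difference of 0.06 (SE 0.07) carries little information and no fold is given.

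*CREBBP* encodes CBP, the acetyltransferase first found through its binding to phosphorylated CREB. Its level was 9.22, 9.25 and 9.25 with SB216763, against 8.66 and 8.91 in controls. The SB216763 arrays lay close together, all above both controls, and the control arrays lay further apart. The difference was 0.45 (SE 0.09, 95% interval 0.24 to 0.67, adjusted p = 0.0188 by limma), or 1.37-fold with an interval of 1.18 to 1.59. Among the 12071 genes above background on all arrays, 10.9% had a larger absolute difference. The call was lost without SB216763 replicate 1 (adjusted p = 0.0745) and without SB216763 replicate 3 (adjusted p = 0.0546). Over all genes 993 and 1606 were called in these settings, beside 2418 as reported. With either control left out the call was lost, as were nearly all calls over all genes. That loss is therefore not particular to *CREBBP*. The difference itself was 0.33 without control replicate 1, 0.58 without control replicate 2 and between 0.42 and 0.46 under every other alternative run. The call was also lost in an ordinary linear model without moderation (adjusted p = 0.136) and when all probes were tested singly (adjusted p = 0.0555). The nearest centred profiles were those of *RPL12*, *GRAMD1B* and *PFDN5*, at distances of 0.022, 0.028 and 0.030 log2 units.

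*EP300* encodes p300, the paralogue of CBP. It lay at 9.97, 9.86 and 9.96 with SB216763, against 9.74 and 9.50 in controls. The groups did not overlap, as for 41.4% of all genes tested. The difference of 0.31 (SE 0.10, 95% interval 0.09 to 0.54) had an adjusted p of 0.0770 by limma. It passed in 3 of 14 alternatives. Its adjusted p by limma was 0.0365 without dim genes, 0.0309 with a variance trend and robust settings and 0.0132 with array weights. Over all genes these settings called 3105, 3127 and 4720, beside 2418 as reported. Among alternatives that kept both controls, the adjusted p of *EP300* ranged up to 0.239. The difference was 0.19 without control replicate 2 and 0.43 without control replicate 1. For *CREBBP* the order of the controls was the opposite: its lower control was replicate 1 and that of *EP300* was replicate 2. The 95% intervals of the acetyltransferase genes overlapped widely, and a difference between their responses was not tested.

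The CRTC genes encode the coactivators that salt-inducible kinases and calcineurin control. *CRTC1* lay at 8.54, 8.53 and 8.58 with SB216763, against 8.17 and 8.44 in controls, without overlap. Its difference was 0.24 (SE 0.10, 95% interval 0.02 to 0.47, adjusted p = 0.156 by limma), with 0.11 without control replicate 1 and 0.38 without control replicate 2. *CRTC2* lay at 7.80, 7.83 and 7.76 with SB216763, against 7.66 and 7.67 in controls, without overlap and with a difference of 0.13 (SE 0.08, 95% interval -0.05 to 0.31, adjusted p = 0.333). *CRTC3* lay at 7.54, 7.30 and 7.54 with SB216763, against 7.54 and 7.43 in controls. Its groups overlapped throughout, and the difference of -0.02 (SE 0.10, 95% interval -0.26 to 0.21, adjusted p = 0.925) turned to 0.056 without SB216763 replicate 2, 0.035 without control replicate 1 and 0.050 with array weights. None of the 3 CRTC genes passed in any of the 14 alternatives.

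*PDE4B* and *PDE4D* encode cAMP-specific phosphodiesterases, and *PDE4B* is abundant in many leukocytes. *PDE4B* lay at 4.63, 4.89 and 4.76 with SB216763, against 4.46 and 4.57 in controls, and *PDE4D* at 5.05, 5.09 and 5.004 with SB216763, against 5.23 and 5.11 in controls. Every one of these values was below its array's background, with differences of 0.24 (SE 0.10, adjusted p = 0.161 by limma) and -0.12 (SE 0.08, adjusted p = 0.412). No fold is given for either gene.

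**Figure D2:**
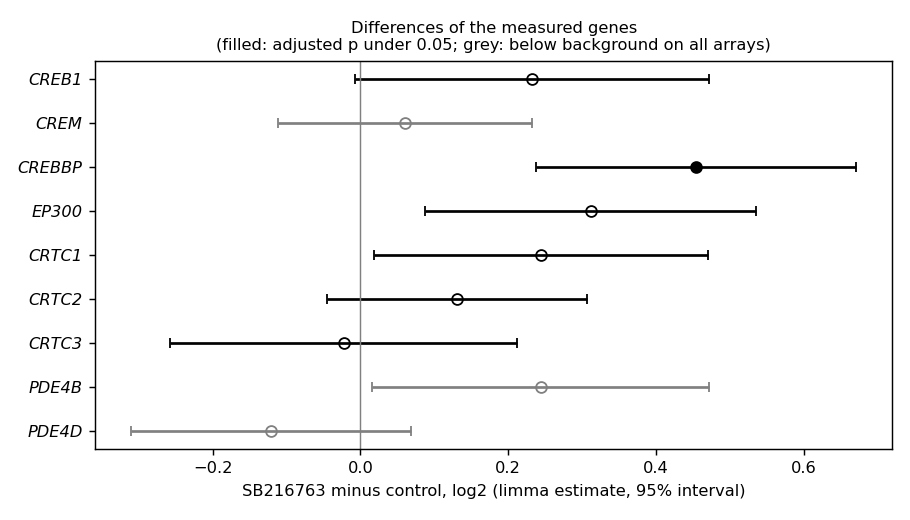
SB216763 minus control difference in log2 units (x axis) of each measured gene (y axis), as limma's estimate with its 95% interval, from 3 SB216763 and 2 control arrays. *CREBBP* (filled) is the gene past the adjusted threshold at 0.45, the intervals of *EP300* and *CRTC1* lie above 0 without passing it, and *CREM*, *PDE4B* and *PDE4D* (grey) were below background on all arrays.

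Of the 9 measured genes, 6 had groups that did not overlap with SB216763 higher, where 21.6% of all genes did so. Among the 6 above background on every array the count was 4, where 27.3% of all genes above background did so. *CREB1*, *CREBBP*, *CRTC1* and *CRTC2* each had their lowest value on control replicate 1, as did *PDE4B* below background. That array also had the lowest median of the 5, at 6.77 log2 units, where control replicate 2 had 6.80. The share of all genes lowest on control replicate 1 was not counted. With each array centred on its median, *CREBBP* differed by 0.42 (adjusted p = 0.0195 by limma). The differences of *CREB1*, *CRTC1* and *CRTC2* were then 0.20, 0.21 and 0.10, without passing. Of the 9 genes, 4 had an unadjusted p under 0.05, all with positive differences, and *PDE4B* among them was below background. Over all genes the share at that unadjusted level was 26.5%.

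**Figure D3:**
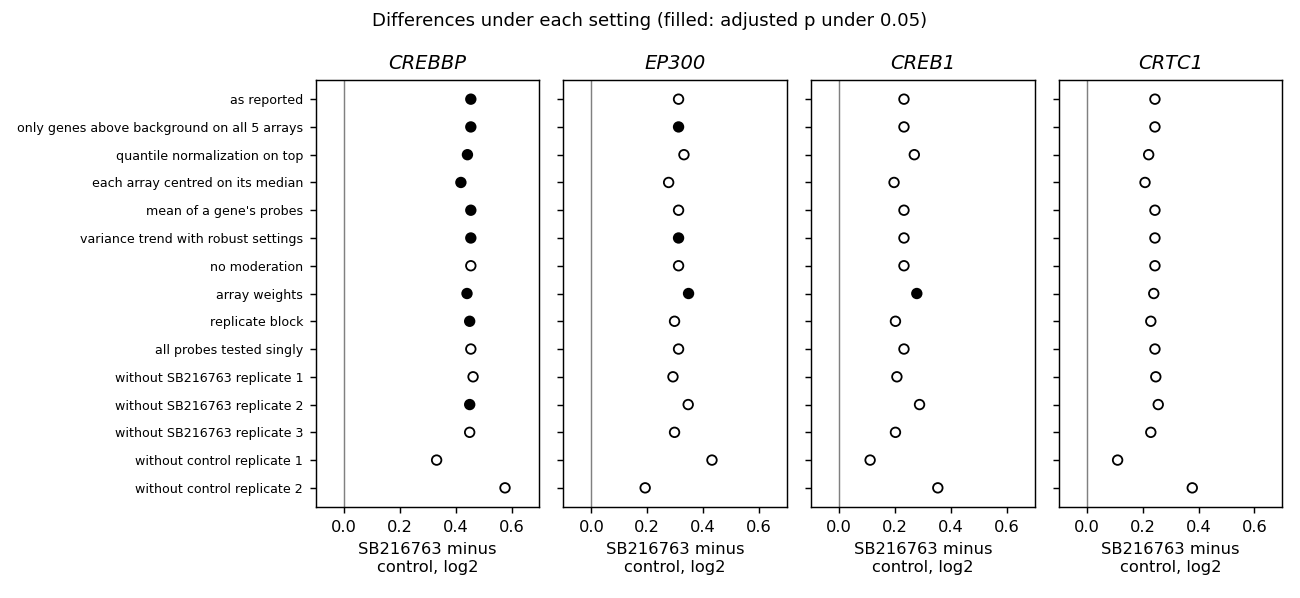
SB216763 minus control difference in log2 units (x axis) of *CREBBP*, *EP300*, *CREB1* and *CRTC1* as reported and under the 14 alternatives (y axis), with filled points where the adjusted p was under 0.05. Every point lies above 0. *CREBBP* was past the threshold in 8 of 14 alternatives, *EP300* in 3, *CREB1* in 1 and *CRTC1* in 0. Leaving out dim genes, averaging probes, a variance trend, no moderation and testing probes singly cannot change the difference of these genes. The 14 are therefore not separate checks of direction.

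The surrounding pathway was read from 6 lists of genes, also chosen with earlier results of these data known. Their shares called are therefore a description beside those of all genes. Upstream of CREB, 26 genes of cAMP production and protein kinase A were measured, of which limma called 3 higher and 3 lower, or 23.1% beside 13.1% of all genes, with a median difference of 0.01. Among all genes above background on every array, 18.2% were called, and 17 of these 26 were so. *PRKAR2B*, a regulatory subunit of protein kinase A, lay at 9.15, 8.87 and 9.25 with SB216763, against 8.20 and 8.24 in controls, a rise of 0.87 (SE 0.12, adjusted p = 0.00434 by limma), or 1.83-fold. *PRKACB*, a catalytic subunit, lay at 9.07, 9.01 and 9.09 with SB216763, against 8.47 and 8.56 in controls, a rise of 0.55 (SE 0.08, adjusted p = 0.00505). The groups were well apart for both subunits. In the other direction *PRKAR1B*, another regulatory subunit, lay at 7.79, 7.67 and 7.75 with SB216763, against 8.05 and 8.08 in controls, and fell by 0.33 (SE 0.08, adjusted p = 0.0328). *ADCY9*, an adenylyl cyclase, fell by 0.37 (SE 0.08, adjusted p = 0.0211). The cyclases *ADCY7* and *ADCY3*, named after their values were seen, changed in opposite directions, by 0.35 and -0.31. The catalytic subunit gene *PRKACA* differed by 0.08 and the main type I regulatory subunit gene *PRKAR1A* by 0.01, and neither passed. Limma called 2 of these genes without SB216763 replicate 1 or replicate 3. Leaving out either control gave 0 calls by limma, and 7 genes with unadjusted p below 0.05 each time.

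Among the 13 other cAMP phosphodiesterases measured, 1 rose and 1 fell, and 7 were above background on no array. The 15.4% called is close to the 13.1% of all genes. *PDE1B*, a calcium-stimulated phosphodiesterase, lay at 8.99, 8.98 and 8.98 with SB216763, against 8.43 and 8.30 in controls, a rise of 0.62 (SE 0.08, adjusted p = 0.00324 by limma), or 1.54-fold. *PDE3B*, a phosphodiesterase that insulin signalling activates, lay at 9.36, 9.14 and 9.46 with SB216763, against 9.74 and 9.77 in controls, and fell by 0.43 (SE 0.11, adjusted p = 0.0351). Neither gene's groups overlapped. *PDE4A* and *PDE4C*, the remaining members of the PDE4 family, were above background on every array and differed by -0.14 and -0.05, without passing. *PDE3B* was not called without SB216763 replicate 1, and leaving out either control gave 0 calls by limma. Unadjusted p was then below 0.05 for 4 genes (control replicate 1 left out) and 2 genes (control replicate 2 left out).

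Of 22 measured kinases and phosphatases that act on CREB and the CRTC proteins, 3 rose and 2 fell, with a median of 0.00. That is 22.7% called, beside 13.1% of all genes. Among all genes above background on every array 18.2% were called, and 20 of these 22 were above it on every array. *RPS6KA5*, which encodes MSK1, a kinase that phosphorylates CREB and histone H3 after mitogens and stress, lay at 6.75, 6.35 and 6.89 with SB216763, against 7.70 and 7.82 in controls. The fall was 2.14-fold, or -1.10 on the log2 scale (SE 0.15, adjusted p = 0.00449 by limma). *SIK3*, a salt-inducible kinase that restrains CRTC proteins, lay at 8.63, 8.49 and 8.62 with SB216763, against 7.81 and 8.10 in controls, a rise of 0.63 (SE 0.11, adjusted p = 0.00900). Its relative *SIK2* differed by 0.32 (SE 0.09), with an adjusted p of 0.0609. *CAMKK1*, which activates calmodulin-dependent kinases, fell by 0.39 (SE 0.09, adjusted p = 0.0313), and *CAMK2D*, a calmodulin-dependent kinase, rose by 0.38 (SE 0.10, adjusted p = 0.0438). *PPP1CC*, a catalytic subunit of protein phosphatase 1 picked for mention once its value was known, rose by 0.32 (SE 0.08). With each array centred on its median, *CAMK2D* and *PPP1CC* were not called. Limma called 2 genes without SB216763 replicate 1 or replicate 3, and 11 with array weights. Leaving out control replicate 1 gave 0 calls by limma and 6 genes with unadjusted p below 0.05, and leaving out control replicate 2 gave 0 calls and 8 such genes.

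Of 14 measured bZIP factors related to CREB, 3 rose and 0 fell, with a median of 0.01. That is 21.4% called, beside 13.1% of all genes. Of the 14, 13 were above background on every array, and 18.2% of all genes above it on every array were called. *CREB5*, a CRE-binding factor close to ATF2, lay at 8.02, 7.84 and 7.90 with SB216763, against 7.12 and 7.22 in controls, a rise of 0.75 (SE 0.09, adjusted p = 0.00254 by limma), or 1.68-fold. *ATF7*, of the same subfamily, lay at 8.97, 8.94 and 9.02 with SB216763, against 8.31 and 8.34 in controls, a rise of 0.65 (SE 0.08, adjusted p = 0.00237). Their subfamily partner *ATF2* differed by 0.17 and did not pass (adjusted p = 0.332). *CREB3L2*, a membrane-bound factor of the secretory pathway, rose by 0.31 (SE 0.08, adjusted p = 0.0453), and was not called with each array centred on its median. Leaving out control replicate 1 gave 0 calls by limma and 4 genes with unadjusted p below 0.05, and leaving out control replicate 2 gave 0 calls and 5 such genes. With SB216763 replicate 1 or replicate 3 left out, 2 genes were called.

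Of 14 other acetyltransferases and coactivators measured, all above background on every array, 3 rose and 1 fell, with a median of 0.05. That is 28.6% called, where 18.2% of all genes above background were called. *NCOA1* and *NCOA2*, nuclear receptor coactivators that bind CBP and p300, rose by 0.42 (SE 0.10, adjusted p = 0.0334 by limma) and 0.34 (SE 0.08, adjusted p = 0.0385). *TAF1*, the largest subunit of TFIID, lay at 9.30, 9.27 and 9.32 with SB216763, against 8.84 and 9.04 in controls, and rose by 0.35 (SE 0.09, adjusted p = 0.0357). *CITED2*, a small protein that binds CBP and p300 and competes with other factors for them, lay at 9.01, 8.87 and 8.90 with SB216763, against 9.65 and 9.47 in controls, and fell by 0.63 (SE 0.09, adjusted p = 0.00546). *KAT2A* and *KAT2B*, acetyltransferases of another family, differed by 0.04 and 0.12, without passing. *NCOA2* was not called with each array centred on its median. Limma called 1 gene without SB216763 replicate 1 or replicate 3. Leaving out control replicate 1 gave 0 calls by limma and 4 genes with unadjusted p below 0.05, and leaving out control replicate 2 gave 0 calls and 5 such genes.

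**Figure D4:**
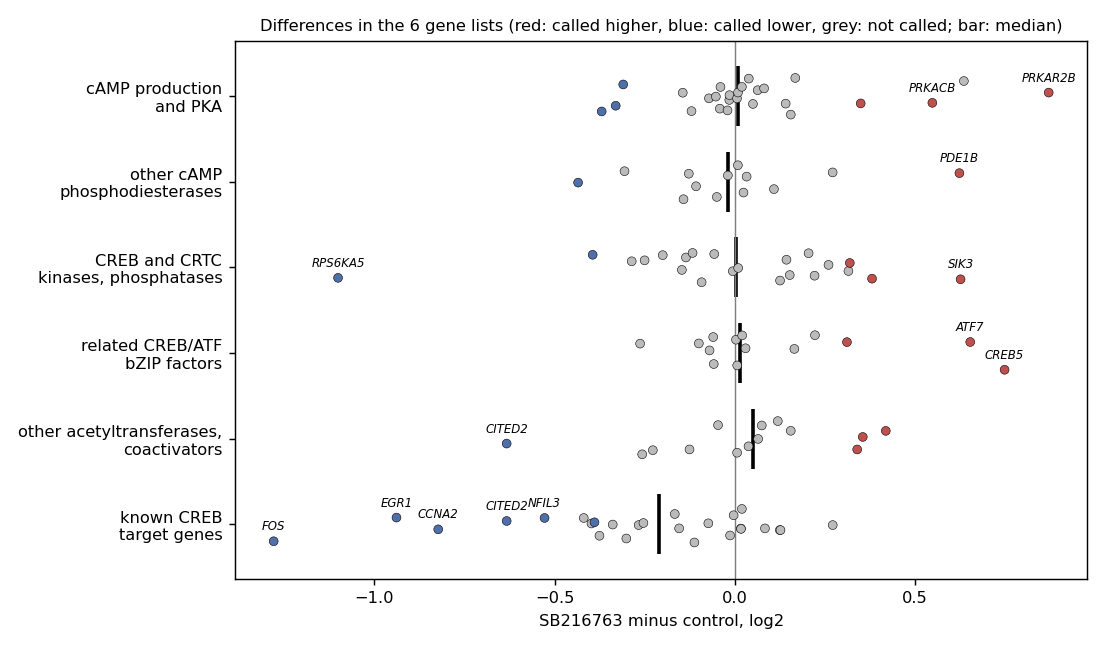
SB216763 minus control difference in log2 units (x axis) of the measured genes in the 6 lists (y axis), each point 1 gene, red where called higher, blue where called lower and grey where not called, with a bar at the list's median. Points are spread vertically within a list for legibility, and called genes beyond 0.5 are named. The median of the CREB target genes was -0.21, and those of the other lists lay between -0.02 and 0.05.

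Downstream, 26 genes known to be driven by CREB were measured, of which 6 fell and 0 rose, or 23.1% called, with a median difference of -0.21 beside 0.00 over all genes. Over all genes 13.1% were called in either direction and 5.92% were called lower. Of the 12071 genes above background on every array, 18.2% were called and 1027 were called lower. Of the 26 targets 17 were above background on every array. The list holds genes that other factors drive as well, and 8 of its genes were above background on no array. *FOS*, the immediate early factor of the AP-1 complex, lay at 7.22, 7.34 and 7.39 with SB216763, against 8.71 and 8.48 in controls, with a 2.43-fold fall and a log2 difference of -1.28 (SE 0.10, adjusted p = 0.000602 by limma). *EGR1*, an immediate early zinc finger factor, lay at 8.20, 8.20 and 8.41 with SB216763, against 9.24 and 9.17 in controls, and fell by 0.94 (SE 0.09, adjusted p = 0.00138). For both immediate early genes, every SB216763 array lay well below both controls.

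*CCNA2*, cyclin A of S phase and mitosis, lay at 9.78, 9.50 and 9.76 with SB216763, against 10.56 and 10.45 in controls, and fell by 0.82 (SE 0.11, adjusted p = 0.00356 by limma). *CITED2*, described above, was the fourth gene of this list by p. *NFIL3*, a bZIP repressor, and *BCL2*, the survival factor, were named after their values were seen and fell by 0.53 (SE 0.08) and 0.39 (SE 0.08). Other textbook CREB targets did not pass: *NR4A1*, an orphan nuclear receptor, differed by 0.02, *PER1* of the clock by 0.13, *JUNB* by -0.01 and *DUSP1*, a phosphatase of MAP kinases above background on only 1 of 3 SB216763 arrays, by -0.40 (SE 0.13, adjusted p = 0.0985). Of the 26 genes 13 had groups that did not overlap with SB216763 lower, beside 19.9% of all genes. With SB216763 higher it was 2, beside 21.6%. Among the 12071 genes above background on every array, 2898 were lower and 3294 higher in this way. *BDNF* among the 13 and *RGS2* among the 2 were below background on every array, and *JUNB* among the 13 differed by only -0.01. With either control left out, the calls in this list were lost, as were nearly all calls over all genes. The list's median was -0.10 without control replicate 1, and limma called 10 genes with array weights.

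**Figure D5:**
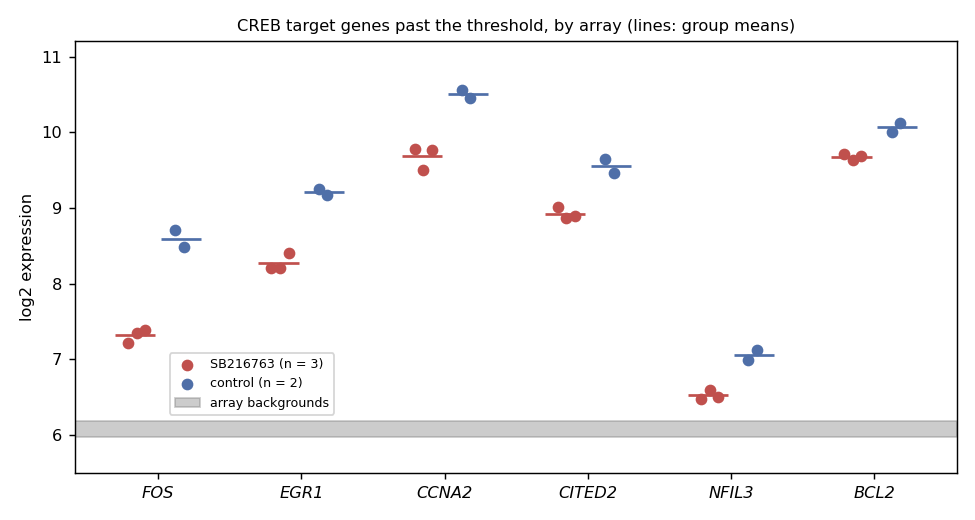
Log2 expression (y axis) of the 6 CREB target genes past the threshold (x axis), on 3 SB216763 arrays (red, left) and 2 control arrays (blue, right), with lines at the group means and a grey band over the 5 array backgrounds. In every gene shown all SB216763 points lie below both control points.

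CREB binds the cAMP response element, whose full form is the palindrome TGACGTCA and whose half-site is TGACG. RefSeq promoter windows of build GRCh38.p14, cut to the 250 bases before each annotated start, were searched for these letters on both strands, so that CGTCA is the half-site on the other strand and each full element holds a half-site on each strand. Of 35116 windows, 1.65% held the full element and 21.2% a half-site. The CREB group had 30 windows in 9 genes, with *ATF1* among them and *CRTC2* not in the table. The full element was in 1 of these windows, in *CREM*, and a half-site in 5, or 16.7%, which is below the share of all windows. The CREB target genes had 30 windows in 21 genes, with the full element in 5, or 16.7%, and a half-site in 16, or 53.3%. Counted by gene, the full element was in 1 of 9 group genes and 5 of 21 targets, where 2.83% of genes tested held it. A half-site was in 4 of 9 group genes and 16 of 21 targets, where 31.0% of genes tested held one. A gene counted where any of its windows matched, so more windows gave it more chances. The group had 30 windows in 9 genes, and the genes tested had 20109 windows in 14239 genes. The targets were listed as genes known to be driven by CREB. More matches among them than over all genes may come with that choice and are not read as a result. Shown are the *CREBBP* window with half-sites, from the called gene of the group, the *CREM* window with the full element, and those of the 3 targets that fell furthest, with the matching letters in capitals.
CREBBP: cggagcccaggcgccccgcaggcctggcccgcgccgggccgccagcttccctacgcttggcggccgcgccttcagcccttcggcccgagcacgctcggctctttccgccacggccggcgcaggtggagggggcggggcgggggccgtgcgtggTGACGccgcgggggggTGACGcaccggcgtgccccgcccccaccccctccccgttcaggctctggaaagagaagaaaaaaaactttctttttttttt
CREM: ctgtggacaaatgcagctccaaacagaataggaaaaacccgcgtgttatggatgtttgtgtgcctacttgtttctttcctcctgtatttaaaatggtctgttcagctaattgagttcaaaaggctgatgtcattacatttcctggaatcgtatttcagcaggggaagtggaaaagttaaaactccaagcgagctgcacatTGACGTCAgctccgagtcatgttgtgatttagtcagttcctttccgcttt
FOS: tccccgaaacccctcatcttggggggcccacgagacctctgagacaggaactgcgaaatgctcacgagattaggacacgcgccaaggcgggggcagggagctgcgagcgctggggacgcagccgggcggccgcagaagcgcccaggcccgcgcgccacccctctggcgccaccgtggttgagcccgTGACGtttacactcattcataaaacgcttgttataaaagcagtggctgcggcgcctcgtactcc
EGR1: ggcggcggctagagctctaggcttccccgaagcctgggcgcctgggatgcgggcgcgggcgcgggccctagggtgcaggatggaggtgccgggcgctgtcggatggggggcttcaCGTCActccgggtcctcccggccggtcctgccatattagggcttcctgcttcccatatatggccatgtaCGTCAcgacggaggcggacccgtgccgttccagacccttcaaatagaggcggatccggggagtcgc
CCNA2: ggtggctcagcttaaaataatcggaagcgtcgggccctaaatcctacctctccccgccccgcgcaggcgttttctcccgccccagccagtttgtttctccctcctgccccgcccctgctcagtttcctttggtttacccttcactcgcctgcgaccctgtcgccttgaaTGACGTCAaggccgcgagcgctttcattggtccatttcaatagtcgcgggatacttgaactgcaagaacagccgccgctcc

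These windows lie at chr16:3880714-3880963 on the minus strand for *CREBBP*, chr10:35195652-35195901 on the plus strand for *CREM*, chr14:75278578-75278827 on the plus strand for *FOS*, chr5:138465229-138465478 on the plus strand for *EGR1* and chr4:121823884-121824133 on the minus strand for *CCNA2*. *CREBBP*, which rose, has 2 windows. The one shown held half-sites that begin 97 and 81 bases before that start, and the other held neither form. *FOS*, which fell, held 1 half-site beginning 64 bases before its start, and *EGR1* held 2, on the other strand, beginning 135 and 66 bases before it. *CCNA2* held the full element 81 bases before its start. The *CREM* window belongs to 1 of its 7 annotated starts and holds the full element 50 bases before it, and *CREM* was below background on every array. Of the other targets called lower, *BCL2* and *NFIL3* held a half-site and *CITED2* neither form in its 3 windows. A match describes letters in a window and does not show that CREB was bound there in these cells.

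Of the inhibitor's own targets, *GSK3B* lay at 9.54, 9.39 and 9.47 with SB216763, against 9.06 and 9.19 in controls, a rise of 0.34 (SE 0.09, adjusted p = 0.0403 by limma), and *GSK3A* differed by 0.09. *MEIS1*, which encodes the homeodomain partner named above, lay at 10.49, 10.43 and 10.57 with SB216763, against 10.43 and 10.58 in controls. Its groups overlapped, with a difference of -0.01 and a 95% interval of -0.21 to 0.20.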

How the data were processed

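RNA from RS4;11 cells was hybridised to 5 Affymetrix arrays, whose titles give the group and a replicate number. The authors deposited log2 expression values made with Affymetrix Expression Console, per the submitters' processing notes; the log2 scale follows from their range, 1.95 to 14.84. The software version, how probes were summarised and the build are not given in the sources. Values were used without further normalization. Of 33297 probes, 19460 named 1 gene and were used, 1754 named several and 12083 were unnamed here. A gene with several probes was read from the one with the highest mean over all arrays, which left 18417 genes, and each of the 9 measured genes of the CREB group had 1 probe.

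SB216763 and control arrays were compared by limma 3.58.1 under R 4.3.3, with lmFit and eBayes, two-sided, on 7.62 degrees of freedom, and p-values were adjusted by Benjamini-Hochberg across genes. The procedure was tested on simulated data. No set test was run: list counts and medians stand beside those of all genes. The genes of the CREB group and the lists were chosen with earlier results of these data known. Named were all genes of the group and, in each list, those past the threshold, or the 4 with the smallest p where more passed. Other list genes in the text, all those given as not passing among them, were picked after their values were seen. Alternatives left out dim genes, added quantile normalization, centred each array, averaged a gene's probes, used a variance trend and robust fitting, dropped moderation, weighted arrays, blocked on the replicate number, tested all probes singly, or left out each array in turn. Where 1 control array was left, its spread was taken to equal that of the SB216763 arrays. The number of arrays limits the precision. Figures were drawn with matplotlib 3.10.9.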

Additional observations from a re-analysis of the deposited data

How the results depend on the processing

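Over all genes 2418 were called, 251 without moderation and 4720 with array weights, which gave SB216763 replicate 1 a weight of 8.54 and the other arrays 0.312 to 0.758. Leaving out 1 array gave 0 to 2859 calls over all genes, with 1 without control replicate 1 and 0 without control replicate 2. An unadjusted p under 0.05 was then found for 3603 to 5550 genes. Those left by dropping control replicate 1 (3603) or 2 (3960) lay beside 3743 without SB216763 replicate 1. In the CREB group 1 gene was called. When dim genes were left out it was 2 of 6, where 3105 of 12071 genes were called. A variance trend with robust settings gave 2, where 3127 of all genes were called, and array weights gave 3. The group had 0 without moderation, 0 with all probes tested singly and 0 to 1 when 1 SB216763 array was left out. Over all alternatives 2 to 5 of its genes had an unadjusted p under 0.05. The *CRTC3* difference reversed to 0.050 with array weights, 0.056 without SB216763 replicate 2 and 0.035 without control replicate 1. It was as low as -0.082 with quantile normalization and -0.081 without control replicate 2. The other 8 measured genes kept their direction in every alternative that gave a value, though several alternatives leave the difference unchanged by construction. The cause of these changes was not tested.

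Counts called in the lists without moderation were 0 for cAMP production, phosphodiesterases, kinases, coactivators and targets and 1 for bZIP factors. With all probes tested singly they were 2 for cAMP production, 1 for phosphodiesterases, 2 for kinases and 1 for coactivators. Array weights gave 11 kinases and 10 targets, where 4720 of all genes were called, and centring 3 kinases, where 2529 were. Leaving out 1 array gave 0 to 6 for cAMP production, 0 to 2 for phosphodiesterases, 0 to 5 for kinases, 0 to 3 for bZIP factors, 0 to 4 for coactivators and 0 to 7 for targets.

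The median of cAMP production was -0.028 with centring and 0.042 with array weights, and -0.016 to 0.040 with 1 array left out. The other medians with 1 array left out were -0.066 to 0.062 for phosphodiesterases, -0.0087 to 0.046 for kinases, 0.0033 to 0.039 for bZIP factors, 0.020 to 0.072 for coactivators and -0.25 to -0.10 for targets. The kinases' median was 0.067 without dim genes, and the bZIP factors' -0.022 with centring.

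With the replicate number as a block, SB216763 replicate 3 has no control of its number and does not enter the difference. *CREBBP* was called there (difference 0.45, adjusted p = 0.0353 by limma). The same difference did not pass when that array was simply left out (adjusted p = 0.0546), so the block is not a separate check. Over all genes the block gave 1830 calls. Cyclic AMP production, kinases and coactivators had 2 calls each, with a median of 0.040 for cAMP production. Same-numbered arrays did not deviate together (correlations -0.05 and -0.10), so the numbers were not taken as pairs.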
